A study of Homo sapiens with 21 samples.

Results

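PC-9 is an established human lung adenocarcinoma line whose growth depends on a deletion in EGFR. Its EGFR-high subpopulation was compared here with the unsorted parental cells by sequencing of polyadenylated RNA. The comparison takes 6 of the 21 samples of the series, 3 EGFR-high and 3 parental libraries, assigned by their labels and by no measured value. Earlier results of these data were known when the comparison was chosen. It covers 11305 of the 20111 genes listed, those with at least 1 FPKM (fragments per kilobase of transcript, scaled to the mapped fragments of the library) in at least 3 of the 9 untreated libraries. EGFR-high cells had been stained with an antibody to EGFR and sorted through 6 rounds for the 5 to 10% of cells with the most receptor at the surface. They are a population held by repeated sorting and not 1 clone. EGFR-low cells, sorted in the same way from the 5 to 10% with the least receptor, gave the other 3 untreated libraries, which entered the fit and are quoted for reference. All 3 groups were grown in RPMI with 10% FBS, received no drug and were collected 24 h after seeding. They share the PC-9 genotype, which the labels give as an EGFR deletion that starts at residue 746. The last deleted residue in the labels runs from 750 in parental replicate 1 to 755 in EGFR-high replicate 3, moving by 1 with each sample. No reads were used, so the deletion itself was not checked.

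EGFR is a receptor tyrosine kinase that binds ligands such as amphiregulin and epiregulin, pairs with itself or with another ERBB receptor and signals through adaptors to the RAS-ERK and PI3K cascades. ERK in turn induces transcription factors and feedback inhibitors such as the Sprouty and dual-specificity phosphatase families. Deletions in exon 19 keep the kinase active without ligand and are a common driver of lung adenocarcinoma. Sorting with an antibody reads the protein at the cell surface, whereas the measurement here is of RNA.

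The 6 libraries were of epithelial character. EPCAM, an epithelial adhesion molecule, lay between 271 and 434 FPKM in them, and KRT8, a keratin of simple epithelia, between 607 and 1283 FPKM. Of the 10 epithelial and lung adenocarcinoma markers, 3 stayed under 1 FPKM in every library, namely the alveolar genes NKX2-1, NAPSA and SFTPB, at 0.0815 FPKM or less. Markers of other cell types were low: 9 of 10 fibroblast, 6 of 8 endothelial, 9 of 10 leukocyte and all 8 neuroendocrine markers were under 1 FPKM in each of the 6 libraries. The exceptions were COL1A1 of the fibroblast markers (1.05 to 2.67 FPKM) and CDH5 (2.26 to 4.26 FPKM) and ESAM (2.20 to 10.6 FPKM) of the endothelial ones. Of the leukocyte markers it was CD68 (17.5 to 39.3 FPKM). COL1A2, DCN and PDGFRA (fibroblasts), CLDN5 and TEK (endothelium), CD3D and MS4A1 (lymphocytes) and INSM1 (neuroendocrine cells) were listed at 0. The summed FPKM of the fibroblast markers ran from 1.09 to 1.61 in parental and from 1.05 to 2.67 in EGFR-high libraries, that of the endothelial markers from 4.47 to 11.3 and from 9.26 to 13.7, that of the leukocyte markers, nearly all CD68, from 23.5 to 25.7 and from 18.3 to 39.7, and that of the neuroendocrine markers from 0.547 to 0.735 and from 0.595 to 0.665. The groups overlapped in each of these sums.

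The libraries differed in ways that the groups do not explain. Ribosomal protein genes held 26.0 to 26.8% of the summed FPKM in replicate 2 of every untreated group and 13.5 to 16.7% in the other libraries. The first principal component of the 6 libraries carried 58.6% of the variance and did not separate EGFR-high from parental cells. Mitochondrially encoded genes held 11.9% ± 1.57 (SD, n = 3) of the FPKM in parental and 10.4% ± 1.88 (SD, n = 3) in EGFR-high cells (exact two-sided permutation p = 0.5, where 3 libraries against 3 cannot go below 0.1). The number of fragments behind an FPKM is unknown, so no counting interval is given. The labels do not say whether replicates were separate cultures, but the study describes the replicates of its RNA sequencing as biologically independent.

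**Figure D1:**
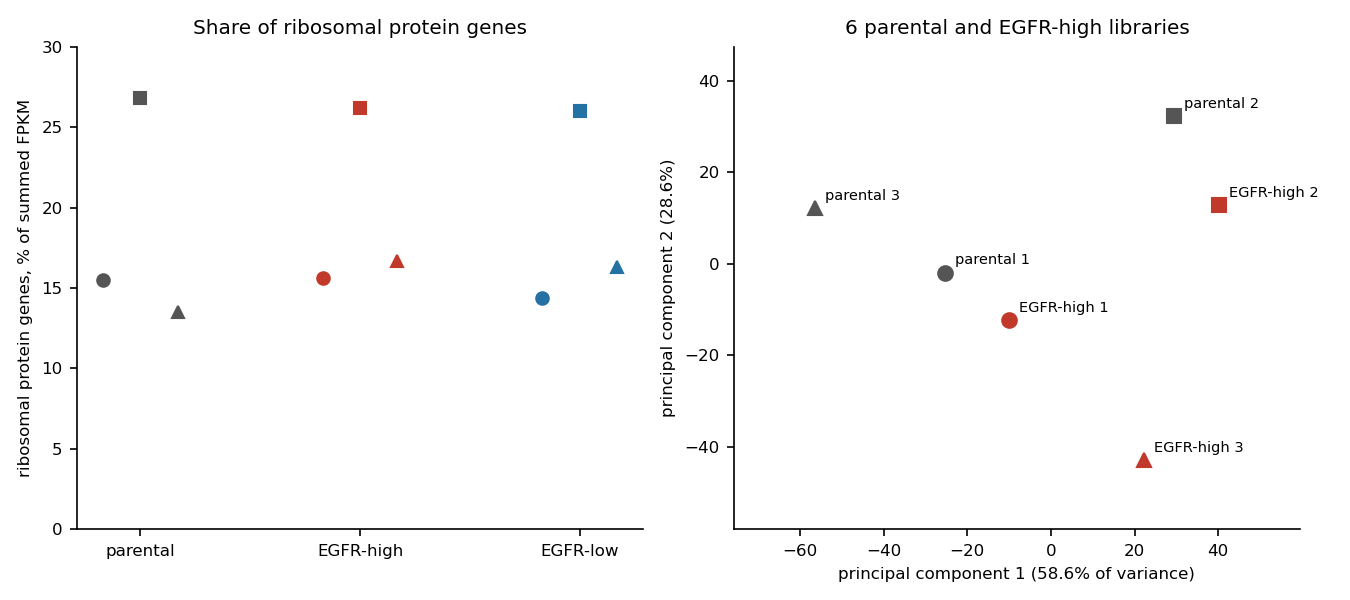
Left, the share of summed FPKM held by ribosomal protein genes in each untreated library; right, the 6 parental and EGFR-high libraries on their first principal components (58.6% and 28.6% of the variance). Circles, squares and triangles are replicates 1, 2 and 3, and grey, red and blue are parental, EGFR-high and EGFR-low cells. Replicate 2 stood at 26.0 to 26.8% in every group, and neither component separated EGFR-high from parental cells without overlap.

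EGFR itself, the gene whose protein was sorted on, was measured at 261, 120 and 244 FPKM in parental replicates 1, 2 and 3 and at 269, 161 and 243 FPKM in EGFR-high replicates 1, 2 and 3. The groups overlapped, with replicate 2 the lowest library of both. The log2 fold change, EGFR-high minus parental on log2(FPKM + 1), was 0.15 (standard error 0.404, 95% interval -0.74 to 1.04, limma adjusted p = 0.895; exact permutation p = 0.7). A difference of about 1 log2 unit upward thus lies within the interval. Without parental replicate 2 the log2 fold change was -0.20. In EGFR-low cells EGFR was 49.1 ± 19.6 FPKM (SD, n = 3), against 208 ± 76.8 in parental and 224 ± 56.7 in EGFR-high cells (SD, n = 3 each).

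Across the transcriptome, 7 genes were higher in EGFR-high than in parental cells at a limma adjusted p under 0.05, or 0.0619% of the genes tested, and 1 was lower, or 0.00885%. They were L1CAM, SUSD2, IGFBP5, GJA5, AQP3, PPM1H and C4orf19 on the higher side and CALB1 on the lower. Every EGFR-high library lay on the called side of every parental library for each of the 8. At an unadjusted p under 0.05, 809 genes were higher (7.16%) and 284 lower (2.51%). Over all genes, 1150 had every EGFR-high library above every parental library (10.2%) and 681 had every one below (6.02%). In the same fit, EGFR-low against parental cells gave 94 genes higher (0.831%) and 87 lower (0.77%), and EGFR-low against EGFR-high cells 183 higher (1.62%) and 248 lower (2.19%). These comparisons share libraries. The number of calls against parental cells depended on the libraries and the settings: it was 2 when EGFR-low libraries were left out of the fit, 15 with no filter on low values, 2 without parental replicate 3 and 4 without the 3 replicate 2 libraries, the last an alternative chosen after seeing the data. It was 7 with the trend of each library with GC content and length removed (6 higher and 1 lower) and 25 when the replicate 2 libraries were then left out as well (18 higher and 7 lower), again chosen after seeing the data. With a replicate block and the trend removed together it was 78 (48 higher and 30 lower), although replicate numbers were not taken to pair the libraries. That fit also called genes given below as uncalled, which are named in the section on processing. The median log2 fold change of all tested genes was 0.07, and 6378 of the 11305 genes were on the higher side.

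**Figure D2:**
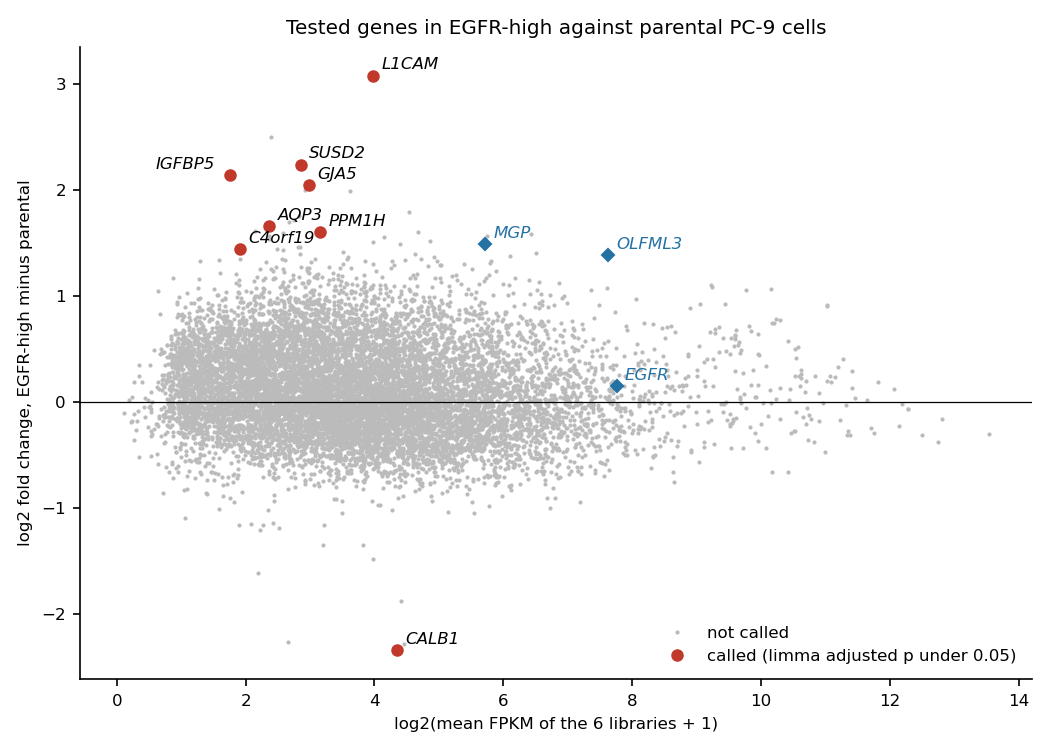
Log2 fold change of the 11305 tested genes, EGFR-high minus parental, against the log2 of their mean FPKM over the 6 libraries plus 1. Red points are the 8 genes with a limma adjusted p under 0.05, from L1CAM at 3.08 to CALB1 at -2.34, and blue diamonds mark EGFR, OLFML3 and MGP, which were not called.

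L1CAM encodes a neural cell adhesion molecule of the immunoglobulin superfamily, also found on invasive carcinoma cells. It was measured at 3.39, 2.24 and 1.41 FPKM in parental replicates 1 to 3 and at 22.8, 22.7 and 36.0 FPKM in EGFR-high replicates 1 to 3. Every EGFR-high library stood far above every parental one. The mean was 11.6-fold higher in EGFR-high cells, which on the log2 scale was a change of 3.08 ± 0.272 (SE, n = 3 each; adjusted p = 0.00116, limma). L1CAM had the largest log2 fold change of the genes tested on log2(FPKM + 1), though the ratio of means was higher for IGFBP5 (17.7), and it was called under each of the 22 alternative settings, with a log2 fold change of 2.87 to 3.30 when 1 library was left out. In EGFR-low cells it was 0.229, 0.0546 and 0.237 FPKM, so that parental cells lay between the sorted populations. In bulk RNA, more cells that express a gene and more RNA per cell cannot be told apart, here or for the genes that follow.

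IGFBP5 encodes a secreted protein that binds insulin-like growth factors and extracellular matrix. Its parental values were 0.318, 0.358 and 0.0902 FPKM and its EGFR-high values 4.30, 5.12 and 4.17 FPKM. All parental libraries were under 1 FPKM and all EGFR-high libraries above 4 FPKM. The log2 fold change was 2.14 ± 0.176 (SE, n = 3 each; adjusted p = 0.00111, limma), and since parental cells were near 0 it depended on the added constant, with 3.80 at a pseudocount of 0.1 and 0.86 at 5. IGFBP5 passed the threshold under all 21 alternatives in which it was tested. The EGFR-low libraries, at 0.424, 0.253 and 0.276 FPKM, overlapped the parental ones (log2 fold change 0.07, limma adjusted p = 0.873). IGFBP3, another protein of this family, had 90.1, 94.0 and 72.1 FPKM in parental and 167, 198 and 132 FPKM in EGFR-high cells. Its libraries did not overlap, but it was not called (log2 fold change 0.94, limma adjusted p = 0.507).

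SUSD2, a single-pass membrane protein with a sushi domain, had 1.99, 1.51 and 0.958 FPKM in parental and 8.97, 8.54 and 15.4 FPKM in EGFR-high libraries. The EGFR-high values were all above the parental ones, with the highest in replicate 3. The mean was 7.37-fold higher (log2 fold change 2.24 ± 0.251, SE; adjusted p = 0.00854, limma). Its call was lost without parental replicate 3 (limma adjusted p = 0.0532) and when EGFR-low libraries were left out of the fit (0.0554). It was also lost with the trend with GC content and length removed (0.0661) and without the 3 replicate 2 libraries (0.0994). In EGFR-low cells SUSD2 was 0.238 ± 0.0343 FPKM (SD, n = 3).

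GJA5, which encodes the gap junction protein connexin 40, had 1.91, 3.24 and 1.14 FPKM in parental and 8.92, 16.4 and 9.88 FPKM in EGFR-high libraries. Replicate 2 was the highest library of both groups. The log2 fold change was 2.05 ± 0.296 (SE, n = 3 each; adjusted p = 0.040, limma). AQP3, a channel for water and glycerol in epithelia, had 1.33, 1.70 and 1.29 FPKM in parental and 4.73, 7.57 and 8.28 FPKM in EGFR-high libraries. Its parental values lay close together and its EGFR-high values were lowest in replicate 1. The log2 fold change was 1.66 ± 0.220 (SE, n = 3 each; adjusted p = 0.0211, limma). The call of GJA5 was lost in 8 of 9 fits that left out 1 library, all but that without parental replicate 2 (limma adjusted p = 0.0618 to 0.239). That of AQP3 was lost without parental replicate 1 (0.172), parental replicate 3 (0.135), EGFR-high replicate 2 (0.134), EGFR-high replicate 3 (0.117), EGFR-low replicate 1 (0.0691) or EGFR-low replicate 3 (0.0663). With the trend with GC content and length removed neither was called (0.0846 for GJA5 and 0.119 for AQP3), nor without the 3 replicate 2 libraries (0.0775 and 0.165), and GJA5 also missed the threshold at a pseudocount of 0.1 (0.182) and with no filter on low values (0.104).

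PPM1H, a serine/threonine phosphatase that acts on phosphorylated Rab proteins, had 4.34, 2.97 and 2.95 FPKM in parental and 13.2, 10.6 and 13.3 FPKM in EGFR-high libraries. EGFR-low cells, at 3.67, 2.20 and 3.61 FPKM, overlapped with parental cells. Its log2 fold change was 1.60 ± 0.240 (SE, n = 3 each; adjusted p = 0.0496, limma), the call nearest to the threshold. C4orf19, an open reading frame now named PGCKA1, had 1.19, 0.920 and 0.980 FPKM in parental and 4.16, 5.14 and 4.29 FPKM in EGFR-high libraries. Here the EGFR-low libraries, at 2.74, 2.17 and 2.57 FPKM, lay between the other groups. The log2 fold change was 1.44 ± 0.186 (SE, n = 3 each; adjusted p = 0.0193, limma). Both calls were lost in 8 of the 9 fits that left out 1 library, all but that without EGFR-low replicate 2, with limma adjusted p-values of 0.113 to 0.285 for PPM1H and 0.0552 to 0.134 for C4orf19. They were also lost with the compared groups alone (0.136 and 0.112) and without the 3 replicate 2 libraries (0.141 and 0.165). PPM1H missed the threshold at a pseudocount of 0.1 (0.0801), with no filter (0.087), a 5 FPKM filter (0.0958) or no variance trend (0.0553). C4orf19 missed it with quantile scaling (0.0648).

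CALB1, which encodes the cytosolic calcium-binding protein calbindin, was the only gene called lower. It had 41.6, 23.1 and 34.7 FPKM in parental and 6.95, 5.92 and 4.15 FPKM in EGFR-high libraries. The highest EGFR-high library was well under the lowest parental one, and parental cells were 5.85-fold higher on average. The log2 fold change was -2.34 ± 0.275 (SE, n = 3 each; adjusted p = 0.0102, limma). EGFR-low cells had 24.1, 19.3 and 20.9 FPKM, nearer to parental cells. The call was lost without parental replicate 1 (limma adjusted p = 0.101), parental replicate 3 (0.0772), EGFR-high replicate 2 (0.0563) or EGFR-high replicate 3 (0.066), and when EGFR-low libraries were left out of the fit (0.0554).

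The sequences upstream of these genes were read from RefSeq (GRCh38.p14) for the 6 of 8 called genes with an entry used here. SUSD2 and CALB1 were not searched, so the motif counts below hold no gene called lower. For 3 of them the 250 bases before an annotated start site are given, because L1CAM and IGFBP5 were called under each alternative that tested them and AQP3 held the most matches. They are written 5′ to 3′ on the strand of the gene, and capitals mark the letters of the SP and KLF, TEAD and E-box motifs spelled out after them, on either strand. The windows are chrX:153876015-153876264 (minus strand) for L1CAM, the more upstream of its 2 entries, chr2:216695550-216695799 (minus) for IGFBP5 and chr9:33447594-33447843 (minus) for AQP3.
L1CAM: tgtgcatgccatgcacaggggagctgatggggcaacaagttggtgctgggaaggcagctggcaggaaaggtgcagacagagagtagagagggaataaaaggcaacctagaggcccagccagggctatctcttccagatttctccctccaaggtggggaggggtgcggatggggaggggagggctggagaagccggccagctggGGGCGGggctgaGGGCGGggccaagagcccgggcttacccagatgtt
IGFBP5: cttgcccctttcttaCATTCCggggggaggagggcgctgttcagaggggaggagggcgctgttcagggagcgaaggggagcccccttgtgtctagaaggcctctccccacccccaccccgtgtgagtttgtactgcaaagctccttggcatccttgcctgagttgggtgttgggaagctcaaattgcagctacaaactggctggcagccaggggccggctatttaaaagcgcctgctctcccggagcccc
AQP3: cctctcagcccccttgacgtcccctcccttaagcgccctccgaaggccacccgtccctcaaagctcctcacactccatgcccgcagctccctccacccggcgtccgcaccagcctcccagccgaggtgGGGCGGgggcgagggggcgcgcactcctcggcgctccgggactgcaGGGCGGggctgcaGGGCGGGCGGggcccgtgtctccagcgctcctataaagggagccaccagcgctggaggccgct
The letters GGGCGG, bound by SP and KLF factors, stood in the windows of 3 of the 6 genes, L1CAM (2 matches), C4orf19 (1 match) and AQP3 (4 matches, of which a pair overlap), and in 42.6% of all 35116 RefSeq windows of this length. GGAATG, the core letters of TEAD sites, stood in 3 of the 6 genes, IGFBP5, PPM1H and GJA5, against 11.9% of all windows, and CACGTG, an E-box, in PPM1H and C4orf19, against 6.34%. The AP-1 letters TGANTCA (6.57% of all windows) and the ETS letters CCGGAAG (8.52%) stood in none of the 6. GJA5, L1CAM and C4orf19 have 2 entries each, and a match in either was counted. The matches of GJA5 and of C4orf19 were in only 1 of their 2 entries. A count of genes is thus not like for like with a share of windows. Both strands were searched. These are matches of letters and not measured binding.

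Fewer genes were called lower than higher, so the lower side is filled by rule with the 5 uncalled genes of smallest p whose libraries did not overlap and whose parental mean reached 5 FPKM. They were PLBD1 (6.95, 7.60 and 6.38 FPKM in parental, 2.76, 2.11 and 2.69 FPKM in EGFR-high libraries), SCEL (21.6, 18.5 and 17.5 against 10.2, 6.64 and 4.74 FPKM), CCDC68 (12.5, 8.69 and 14.3 against 6.43, 4.23 and 3.63 FPKM), CEACAM5 (8.05, 4.65 and 4.44 against 2.70, 1.72 and 1.51 FPKM) and STEAP1 (11.0, 12.7 and 12.8 against 5.05, 4.45 and 3.24 FPKM). SCEL encodes sciellin of the cornified envelope, CEACAM5 a surface antigen of glandular epithelia and STEAP1 a membrane metalloreductase-like protein. None passed the threshold in the main limma fit (log2 fold changes of -1.35 to -1.15, adjusted p = 0.266 to 0.382). With a replicate block and the GC and length trend removed together, all 5 passed it (limma adjusted p = 0.0103 to 0.0494), though replicate numbers were not read as pairs. For SCEL, CEACAM5 and STEAP1 the EGFR-low libraries lay level with or above the parental ones, at 30.6 ± 8.46, 7.97 ± 1.42 and 19.9 ± 10.4 FPKM (SD, n = 3 each). In EGFR-low cells PLBD1 stood instead at 1.59 ± 0.708 FPKM (SD, n = 3). The uncalled gene of smallest p in either direction was MFGE8, a secreted adhesion protein named here after its values were seen, with 2.29, 2.89 and 1.04 FPKM in parental and 7.10, 10.0 and 8.96 FPKM in EGFR-high libraries (log2 fold change 1.70, limma adjusted p = 0.0594). MFGE8 passed the threshold at a pseudocount of 5, with quantile normalization, with the trend with GC content and length removed and without parental replicate 2.

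A list of genes drawn up for the comparison of EGFR-low with EGFR-high cells is placed against parental cells next. It holds genes discussed in the study, such as EGFR, ITGB3, FN1 and TGFB1, and OLFML3, MGP, GABBR2, CBS, ANXA10, MAP2 and SLC6A14, taken for their difference between EGFR-low and EGFR-high cells in earlier results of these data. It was thus chosen on these samples and is no independent evidence of a direction, and both comparisons use the same EGFR-high libraries. Of its 20 tested members none was called between EGFR-high and parental cells by limma. At an unadjusted p under 0.05, 5 were higher and 1 lower, against 7.16% and 2.51% over all tested genes. Every EGFR-high library lay above every parental one for 5 members and below for 4, against 10.2% and 6.02% over all. The median log2 fold change was 0.07, as over all tested genes at 2 decimals. The list mixes genes raised and reduced in EGFR-low cells, such as ITGB3 and OLFML3, so opposite shifts can cancel in its median. OLFML3, a secreted olfactomedin-domain protein, had 114, 113 and 94.0 FPKM in parental, 227, 267 and 368 FPKM in EGFR-high and 1.41, 0.705 and 1.66 FPKM in EGFR-low libraries. The groups formed an order without overlap in which parental cells stood closer to EGFR-high cells. Its log2 fold change between EGFR-high and parental cells was 1.39 (limma adjusted p = 0.203), against -5.60 between EGFR-low and parental cells (limma adjusted p = 3.86e-06).

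MGP, the matrix Gla protein that inhibits calcification, had 22.1, 37.5 and 18.3 FPKM in parental and 59.7, 123 and 49.9 FPKM in EGFR-high libraries. Its libraries did not overlap, with replicate 2 the highest of each group, and it was not called (log2 fold change 1.49, limma adjusted p = 0.426). After removal of the trend of a library's values with GC content and length, MGP was called (log2 fold change 1.74, limma adjusted p = 0.0219). CBS, the enzyme that makes cystathionine from homocysteine, had 5.33, 6.67 and 3.95 against 12.8, 10.9 and 15.5 FPKM. GABBR2, a subunit of the GABA-B receptor, had 4.15, 1.69 and 5.92 against 11.7, 7.62 and 13.5 FPKM. For both, EGFR-high libraries lay above all parental libraries without a call (limma adjusted p = 0.216 and 0.367), and all EGFR-low libraries were under 1 FPKM.

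At the other end, ANXA10, MAP2, SLC6A14 and ITGB3 stood in parental cells above EGFR-high cells and far below EGFR-low cells. ANXA10, an annexin, had 0.362, 0.397 and 0.252 FPKM in parental, 0.0554, 0.128 and 0.163 FPKM in EGFR-high and 14.0, 18.0 and 12.8 FPKM in EGFR-low libraries. MAP2, a microtubule-associated protein of neurons, had 1.52, 0.885 and 1.01 FPKM in parental, 0.468, 0.288 and 0.297 FPKM in EGFR-high and 8.08, 7.50 and 7.29 FPKM in EGFR-low libraries. SLC6A14, an amino acid transporter, and ITGB3, the integrin β3 chain, had the same order of means, with 0.356 and 0.517 FPKM in parental, 0.0566 and 0.281 FPKM in EGFR-high and 10.2 and 6.15 FPKM in EGFR-low cells. For these 4 genes every EGFR-high library was below every parental library, and none was called (limma adjusted p = 0.507 to 0.686), at levels near or under the added constant of 1 FPKM.

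The remaining members of that list overlapped between EGFR-high and parental libraries, apart from HDAC1. FN1, fibronectin, had 8.49 ± 4.21 FPKM in parental and 6.97 ± 2.63 FPKM in EGFR-high cells (SD, n = 3 each; log2 fold change -0.19, limma adjusted p = 0.898). TGFB1 and TGFB2, both TGFβ ligands, had log2 fold changes of 0.20 and -0.13 with 95% intervals of -0.55 to 0.95 and -0.79 to 0.53. CDH1, E-cadherin, was at 0.05 with an interval of -0.55 to 0.66, and ITGAV, the integrin αV chain, at 0.08 with an interval of -0.39 to 0.55. The sign of each of these 4 values turned under another scaling or with the trend with GC content and length removed. LTBP1, which binds latent TGFβ, was at -0.17, BCL2L11, the pro-apoptotic BIM, at 0.20 and the chemokine IL8 at -0.46, the last with values in replicate 2 of each group far above those in the other replicates. The histone deacetylases HDAC1, HDAC2 and HDAC3 had log2 fold changes of 0.58, -0.52 and 0.42, with limma adjusted p-values of 0.507 to 0.559.

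**Figure D3:**
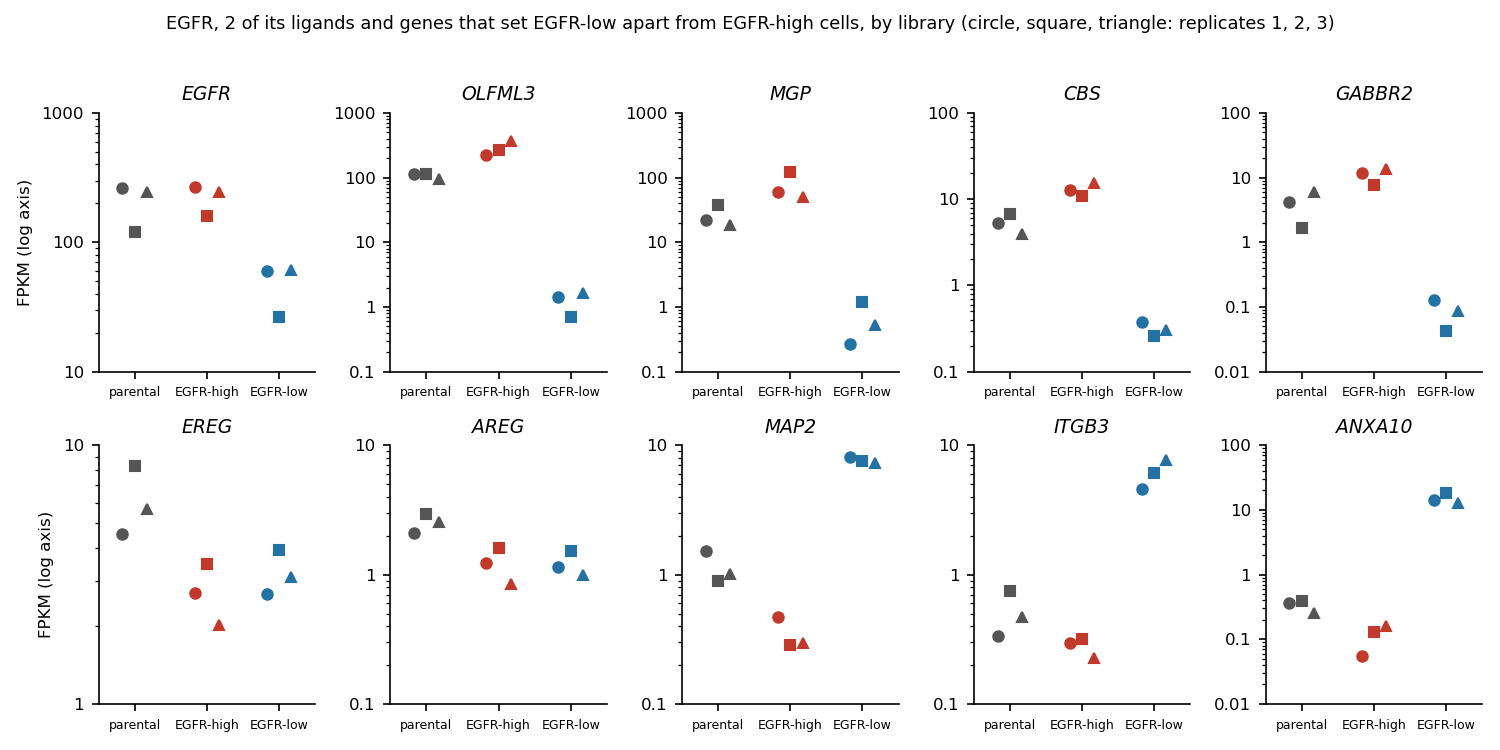
FPKM by library, on log axes, of EGFR, of its ligands EREG and AREG and of 7 genes that set EGFR-low apart from EGFR-high cells. Circles, squares and triangles are replicates 1, 2 and 3. For OLFML3, MGP, CBS and GABBR2 parental cells lie below EGFR-high cells and far above EGFR-low cells, for MAP2, ITGB3 and ANXA10 they lie above EGFR-high cells, and EGFR itself overlaps between parental and EGFR-high cells.

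The EGFR ligands and ERBB receptors gave no call. EREG, epiregulin, had 4.54, 8.33 and 5.66 FPKM in parental and 2.69, 3.47 and 2.02 FPKM in EGFR-high libraries, and AREG, amphiregulin, 2.09, 2.95 and 2.54 against 1.24, 1.60 and 0.847 FPKM. Neither overlapped between the groups. Their log2 fold changes were -0.93 ± 0.257 and -0.67 ± 0.203 (SE; limma adjusted p = 0.493 and 0.507), so neither was called. Of the 7 tested ligands and ligand-shedding proteases, none was called, 2 were lower at an unadjusted p under 0.05 (2.51% over all tested genes), 3 had every EGFR-high library below every parental one (6.02% over all), and the median log2 fold change was -0.26 against 0.07 over all tested genes (-0.09 with the trend with GC content and length removed). The 2 protease genes of the list are ADAM10 and ADAM17. All counts at an unadjusted p under 0.05 in the lists that follow stand against 7.16% higher and 2.51% lower over all tested genes. In EGFR-low cells, EREG (3.23 ± 0.640 FPKM) and AREG (1.23 ± 0.276 FPKM) overlapped the EGFR-high libraries (SD, n = 3 each).

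Among the 9 tested ERBB receptors and adaptors none was called by limma, 1 was higher at an unadjusted p under 0.05 and the median log2 fold change was 0.15 (0.06 with the trend removed). That gene was ERBB3, a receptor with little kinase activity of its own, at 13.3, 12.6 and 9.96 FPKM in parental and 16.1, 15.1 and 21.6 FPKM in EGFR-high libraries, with 25.1, 21.0 and 25.0 FPKM in EGFR-low libraries. GAB1, a docking protein of the PI3K branch, followed with a log2 fold change of 0.41. The 22 tested ERK feedback and target genes had a median of 0.31 (0.14 with the GC and length trend removed), with 18 positive, 3 higher and none lower at an unadjusted p under 0.05, and none called. SPRY2, a feedback inhibitor, had 3.14, 3.25 and 1.92 against 4.75, 5.66 and 4.03 FPKM, and ETV4, an ETS factor downstream of ERK, 22.4, 23.9 and 12.9 against 27.3, 34.3 and 40.5 FPKM. Both were without overlap and not called (limma adjusted p = 0.507 each). The 15 other receptor tyrosine kinases had a median of 0.48 (0.13 with the trend removed) and no call, with 1 lower at an unadjusted p under 0.05, MERTK, at 1.47, 0.977 and 1.39 against 0.740, 0.495 and 0.785 FPKM. EPHB4, an ephrin receptor, was at 0.66 on the log2 scale (limma adjusted p = 0.507).

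The TGFβ and BMP pathway held 28 tested genes, of which none was called, 5 were higher and 2 lower at an unadjusted p under 0.05, with a median log2 fold change of 0.23 (0.10 with the GC and length trend removed). ID3, a BMP target that blocks helix-loop-helix factors, had 1.68, 2.79 and 1.83 FPKM in parental and 4.28, 7.78 and 11.4 FPKM in EGFR-high libraries. Its libraries did not overlap, with a mean 3.72-fold higher in EGFR-high cells (1.44 on the log2 scale, limma adjusted p = 0.268). SMAD6, an inhibitory SMAD, was at 0.77 (adjusted p = 0.507). Of the 17 tested genes known to be induced by TGFβ, 2 were higher and 1 lower at an unadjusted p under 0.05, none was called and the median was 0.26 (-0.01 with the trend removed). The lower one was SKIL, a repressor of SMADs, at 33.0, 26.8 and 39.3 against 22.4, 23.1 and 20.6 FPKM, with 43.9, 50.2 and 51.0 FPKM in EGFR-low cells.

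In the adhesion and matrix lists the 1 member called was L1CAM, of 14 tested neuronal and adhesion genes (median -0.05, and -0.19 with the GC and length trend removed). IGFBP5 is in none of them. No integrin chain of 13 passed an unadjusted p of 0.05 (median -0.16), with ITGB5 at 0.83 and ITGA3 at 0.68 the nearest. Of 19 collagen and laminin chains 1 did, LAMB2, higher (median 0.09, and -0.23 with the GC and length trend removed), and COL17A1 was at -0.55. The 17 tested matricellular and matrix binding proteins had 5 higher and 1 lower at an unadjusted p under 0.05 (median 0.30, and -0.01 with the trend removed). They include OLFML3 and MGP, and EFEMP1, a fibulin, with 1.06, 1.21 and 0.964 FPKM in parental and 2.92, 3.59 and 2.38 FPKM in EGFR-high libraries (log2 fold change 0.92, limma adjusted p = 0.268). OLFML3 and MGP, like GABBR2 and MAP2 of the neuronal and adhesion list, were known from earlier results of these data. Counts of these lists are thus no independent evidence. Of 20 matrix proteases and inhibitors 3 were higher (median 0.28, and 0.02 with the trend removed), among them TIMP3, an inhibitor of metalloproteases, at 138, 94.4 and 112 against 190, 182 and 179 FPKM, and CST3, the secreted cysteine protease inhibitor cystatin C, at 1.11 on the log2 scale. None of these was called.

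The 26 epithelial genes had a median log2 fold change of 0.44, with 21 positive, 4 higher and none lower at an unadjusted p under 0.05 and none called. With each library's GC and length trend removed the median was 0.12. CLDN3, a tight junction claudin, had 0.340, 1.44 and 0.220 FPKM in parental and 1.41, 3.54 and 5.01 FPKM in EGFR-high libraries. These overlapped, since parental replicate 2 lay above EGFR-high replicate 1. TJP3, a tight junction scaffold, had a log2 fold change of 0.93 and KRT19 of 0.69, each with a limma adjusted p of 0.507. Of the 16 tested keratins 4 were higher at an unadjusted p under 0.05 (median 0.33, and -0.05 with the trend removed). KRT15, a keratin of basal epithelial cells, had 13.9, 15.4 and 9.66 FPKM in parental and 23.0, 26.8 and 37.0 FPKM in EGFR-high libraries (log2 fold change 1.10, limma adjusted p = 0.356). KRT13 had 67.2, 53.5 and 30.7 against 80.8, 75.3 and 83.3 FPKM. Both were lower in EGFR-low than in parental cells on average, at 7.22 ± 0.838 and 7.01 ± 1.53 FPKM (SD, n = 3 each).

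The 10 tested mesenchymal genes had no member with an unadjusted p under 0.05 and a median of 0.08 (-0.26 with the GC and length trend removed). SNAI2, a transcription factor of epithelial-mesenchymal transition, was at -0.50 and the receptor AXL at 0.43, and the groups overlapped for both. Of 7 tested lung lineage genes 1 was higher at an unadjusted p under 0.05, MUC1, at 0.793, 1.12 and 0.365 against 1.52, 2.02 and 1.72 FPKM, whose log2 fold change turned from 0.66 to -0.17 with the GC and length trend removed. GATA6, a factor of endoderm, was at -0.70 (list median -0.08, and -0.17 with the trend removed). The gastric-type and mucinous genes, 11 tested, had 2 higher and 1 lower and a median of -0.26. The mucin MUC5B was on the higher side, with 0.960, 2.23 and 0.476 FPKM in parental and 3.07, 3.23 and 5.77 FPKM in EGFR-high libraries (log2 fold change 1.21, limma adjusted p = 0.507), whereas CEACAM5 was on the lower side, as given above. None of these genes was called by limma.

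Of the pathway lists, lipid synthesis genes had the highest median. Of 32 tested genes of cholesterol and fatty acid synthesis 29 were positive, with a median log2 fold change of 0.55 against 0.07 over all tested genes, and it was 0.33 with the GC and length trend removed and 0.63 without the replicate 2 libraries. At an unadjusted p under 0.05, 9 were higher and 1 lower, and none was called. TM7SF2, a sterol reductase, had 1.76, 5.78 and 1.22 FPKM in parental and 4.22, 13.3 and 10.8 FPKM in EGFR-high libraries, and PMVK, the phosphomevalonate kinase, 2.75, 4.55 and 1.66 against 4.60, 7.63 and 9.69 FPKM. FASN, the fatty acid synthase, had 13.3, 21.0 and 7.11 against 21.0, 26.8 and 50.0 FPKM. PMVK did not overlap between the groups, TM7SF2 did, and for FASN the highest parental and the lowest EGFR-high library both stood at 21.0 FPKM. The elongase ELOVL6 was the lower one, at -0.53. Parental replicate 3 was the lowest library for TM7SF2, PMVK and FASN.

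In metabolism and stress, the 28 ATF4 response genes had 6 higher and 1 lower at an unadjusted p under 0.05 (median 0.28, and 0.02 with the GC and length trend removed), of smallest p in CBS and in PHGDH, the first enzyme of serine synthesis, at 35.1, 39.3 and 21.2 against 54.2, 76.9 and 79.4 FPKM. CBS was known from earlier results of these data, so its place in that count is no independent evidence. The 30 NRF2 target genes had 5 higher and 2 lower (median 0.22, and 0.11 with the trend removed). EPHX1, an epoxide hydrolase, was at 0.99 and the transporter ABCC2 at -0.75, the latter with 22.6, 23.3 and 22.0 against 13.8, 12.3 and 13.0 FPKM. The 32 glycolysis and hypoxia genes had 4 higher (median 0.25, and 0.02 with the trend removed), with ADM, adrenomedullin, at 0.71 and CA9, a carbonic anhydrase, at 0.75. The 24 heat shock and unfolded protein genes had 1 higher, HSPB1, at 1.12, and a median of -0.04 (-0.25 with the trend removed), with the co-chaperone DNAJC3 at -0.45. No member of these lists was called by limma, nor any of the 13 mitochondrially encoded genes, of which none passed an unadjusted p of 0.05 (median -0.16, and 0.01 with the trend removed, MT-ND4 at -0.37 and MT-ATP6 at -0.31).

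Cell division genes showed no call. Of 42 S phase and DNA replication genes 1 was higher at an unadjusted p under 0.05, MCM5, a subunit of the replicative helicase, at 25.0, 23.5 and 14.1 against 35.4, 38.0 and 78.8 FPKM, and E2F1 followed at 0.83 (median 0.13, and 0.01 with the GC and length trend removed). Of 44 mitosis genes 4 were lower and none higher (median -0.12). Among them HMMR, a spindle protein, had 111, 144 and 160 FPKM in parental and 75.6, 83.8 and 74.4 FPKM in EGFR-high libraries, and NUF2, a kinetochore protein, 34.2, 37.9 and 38.6 against 26.0, 21.1 and 18.1 FPKM. Neither overlapped between the groups, with limma adjusted p-values of 0.507. Of 17 apoptosis genes of the BCL2 family 3 were higher and 1 lower (median 0.23), with the BH3-only gene PMAIP1 at -0.97 and BOK, a pore-forming member, at 1.16.

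In the immune lists, 6 of 27 interferon-stimulated genes were higher at an unadjusted p under 0.05 and none lower, against 7.16% and 2.51% over all tested genes (median 0.18, and -0.03 with the GC and length trend removed). The members of smallest p were GBP2, at 0.69, and OAS3, at 0.56. The 20 genes of MHC class I and antigen processing had 1 higher, TAPBPL, at 0.47, and TAPBP at 0.52 (median 0.19). With the trend removed these were 0.05 and 0.09, and the median was -0.07. Of 14 cytokines and chemokines 1 was higher and 3 lower (median -0.15, and -0.33 with the trend removed). IL1A, interleukin 1α, had 1.43, 3.88 and 3.86 against 0.765, 1.27 and 0.768 FPKM and PDGFB, a platelet-derived growth factor, 4.97, 6.15 and 2.30 against 6.64, 10.5 and 13.1 FPKM, both without overlap. None of the 7 tested cancer-testis antigens passed an unadjusted p of 0.05 (median 0.10, and -0.06 with the trend removed, MAGEA3 at 0.50 and MAGEA6 at 0.41, near-identical copies whose reads may be shared). None of these genes was called.

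Among developmental and chromatin genes, the 24 WNT and NOTCH pathway genes had 4 higher (median 0.27, and -0.01 with the GC and length trend removed), among them FZD2, a WNT receptor, at 1.08 and WNT11 at 0.63. The 21 YAP and TEAD targets had 2 higher and 1 lower (median 0.22, and 0.13 with the trend removed), with F3, tissue factor, at 175, 130 and 178 against 122, 97.9 and 87.6 FPKM. The 17 histone deacetylases had 2 higher and 1 lower (median 0.38, and -0.11 with the trend removed), the lower one HDAC9, at 7.04, 9.61 and 8.85 against 5.16, 5.26 and 3.78 FPKM. The 14 HOX genes had 2 higher, HOXC13 at 0.83 and HOXC6 at 0.55 (median 0.11, and -0.15 with the trend removed). The counts here too are at an unadjusted p under 0.05, and none of these genes was called.

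**Figure D4:**
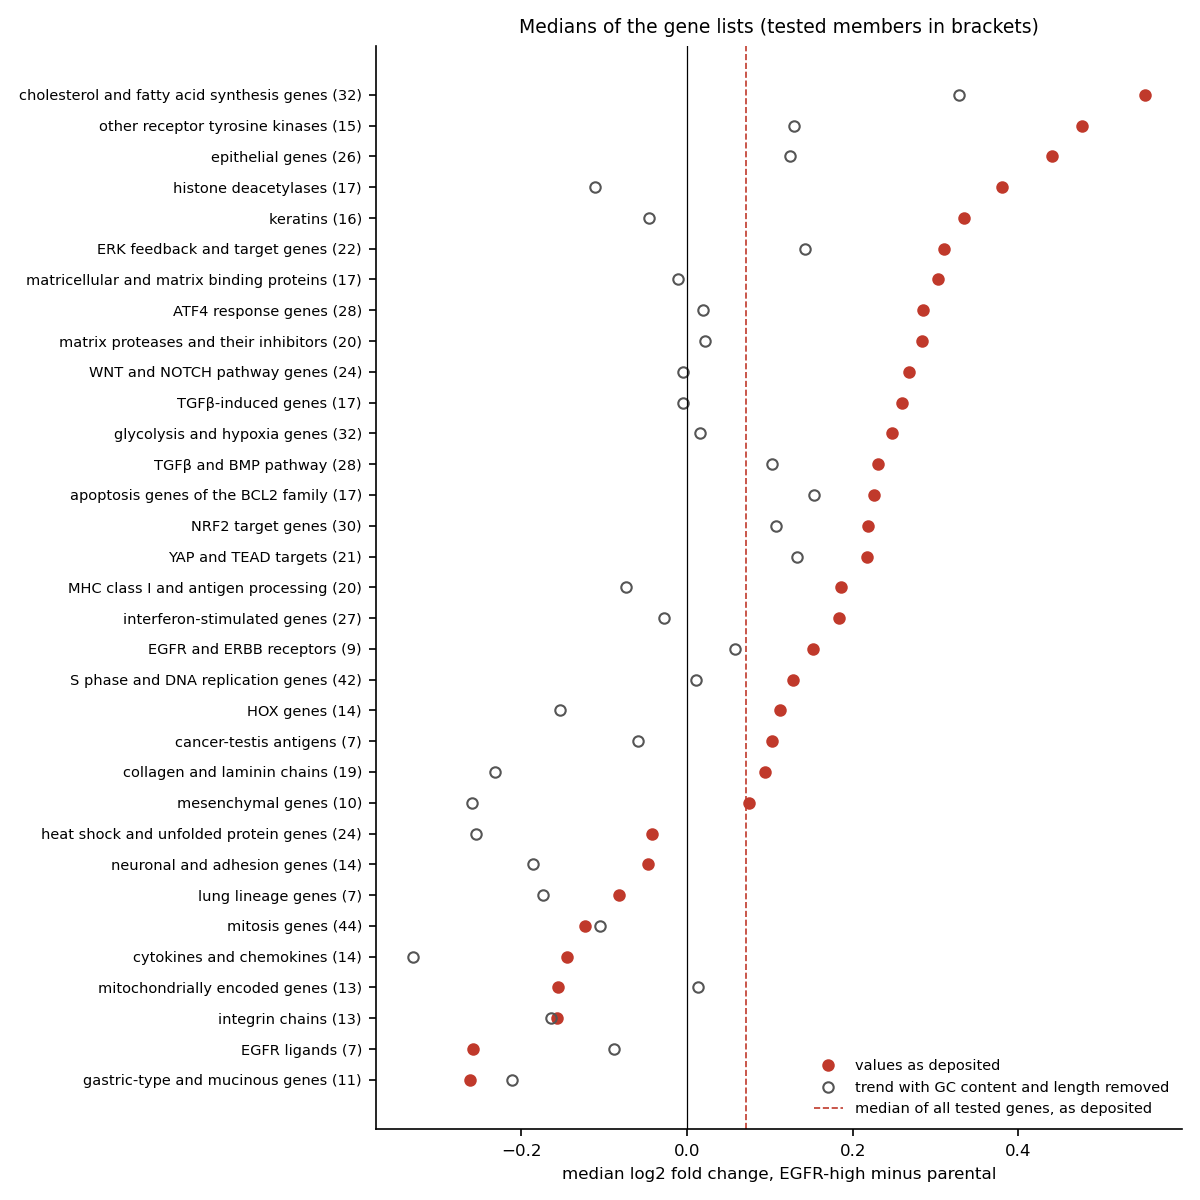
Median log2 fold change, EGFR-high minus parental, of each pathway or gene family list, marker lists left out, with the number of tested members in brackets. Filled points are values as deposited, open points values after trends with GC content and with transcript length were taken out of every library, and the dashed line is the median of all tested genes as deposited (0.07; -0.01 after removal). Of the lists drawn, lipid synthesis genes are highest in both (0.55 and 0.33), and most open points lie to the left of the filled ones.

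The second experiment of the series has no parental cells, so it gives only the level of these genes in EGFR-high and EGFR-low cells kept in DMSO, the solvent control, for 72 h. It was normalized separately, and values are compared within it alone. L1CAM was 12.4, 13.0 and 9.23 FPKM in EGFR-high and 2.70, 0.475 and 0.527 FPKM in EGFR-low cells, and IGFBP5 was 6.11, 3.88 and 4.47 against 1.47, 0.649 and 0.273 FPKM. GJA5 (8.20 ± 1.86 against 0.647 ± 1.09 FPKM), SUSD2 (1.96 ± 0.270 against 0.877 ± 0.275 FPKM) and C4orf19 (1.15 ± 0.0810 against 0.174 ± 0.130 FPKM) were also above EGFR-low cells in every EGFR-high library (SD, n = 3 each; exact two-sided permutation p = 0.1 for each of the 5 genes, the smallest possible). AQP3, PPM1H and CALB1 had the opposite order to that in untreated cells. For PPM1H the margin was small, at 8.11 ± 1.10 FPKM in EGFR-high and 9.29 ± 0.517 FPKM in EGFR-low cells (SD, n = 3 each). Genes outside those called turned as well. In DMSO, CBS was 24.2 ± 6.69 FPKM in EGFR-high and 39.1 ± 4.44 FPKM in EGFR-low cells (SD, n = 3 each). Its untreated means were 13.1 and 0.315 FPKM. The order of CBS thus turned between experiments that differed in solvent, time and normalization. Whether the EGFR-low cells of both experiments were alike was not tested. The order of the 5 genes above is therefore not taken as a repeat in like cells. EGFR-low replicate 1 held the highest EGFR-low value of L1CAM, IGFBP5, GJA5, C4orf19 and EGFR (43.3 FPKM against 17.7 and 19.3). Outside the called genes it stood far above the other EGFR-low libraries for OLFML3 (13.4 FPKM against 0.0131 and 0.0125) and TIMP3 (46.2 FPKM against 0.543 and 0.414). The part of that library in these comparisons was not tested.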

How the data were processed

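Polyadenylated RNA of untreated parental, EGFR-high and EGFR-low PC-9 cells was measured in 3 libraries each. The authors deposited per-gene values in a table whose name speaks of counts, but the values are not whole and were read here as FPKM from their range and sums, with the number of fragments per library unknown. The submitters' processing notes list STAR 2.5.1b, Cufflinks 2.2.1, DESeq2 1.10.1 and the build hg19. Genes that reached 1 FPKM in 3 or more of the 9 untreated libraries were tested on log2(FPKM + 1) with limma 3.58.1 (R 4.3.3; a mean per group, variance trend, Benjamini-Hochberg adjustment, threshold 0.05), and a fold change on this scale understates that of low genes. Single values were compared by exact two-sided permutation tests. The fit was also run on simulated data with independent noise in each library. Those data lacked the shift shared by the replicate 2 libraries, so that run does not bear on the calls under it.

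The comparison and all gene lists were chosen with earlier results of these data known. Named genes are EGFR, up to 12 called genes a direction with the largest change and no overlap, filled to 6 by smallest p among uncalled genes without overlap and with at least 5 FPKM in the higher group, the called or else the 2 members of smallest p of each list, and every gene listed for EGFR-low against EGFR-high cells. Alternatives were pseudocounts of 0.1 and 5 FPKM, no filter or 5 FPKM, median-of-ratios and quantile scaling, a replicate block, no variance trend, removal of each library's spline trend with GC content and length (GENCODE 29), the compared groups alone and each library left out. Replicate numbers were not taken to pair the libraries, since the correlation of deviations between same-numbered parental and EGFR-high libraries was 0.434, 0.757 and -0.00229. Promoter sequences are from RefSeq (GRCh38.p14).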

Additional observations from a re-analysis of the deposited data

Results flagged for a closer look

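The DMSO-treated cells of the second experiment had EGFR-high and EGFR-low cells in the opposite order to untreated cells for 3 of the genes called between EGFR-high and parental cells, with every library on that side in both experiments. AQP3 had a ratio of mean FPKM of EGFR-high to EGFR-low cells of 8.53 in untreated and 0.218 in DMSO-treated cells. For PPM1H the ratio was 3.91 and 0.873, and for CALB1 it was 0.265 and 9.88. In DMSO-treated cells AQP3 was 1.66, 3.90 and 13.2 FPKM in EGFR-high and 16.3, 42.8 and 26.9 FPKM in EGFR-low libraries, and CALB1 was 1.08, 8.01 and 3.51 FPKM against 0.942, 0.176 and 0.158 FPKM. PPM1H was nearly level there, at 6.84, 8.78 and 8.71 FPKM in EGFR-high and 8.92, 9.89 and 9.08 FPKM in EGFR-low libraries. The turn was not particular to these genes. CBS and CEACAM5 had mean FPKM of 13.1 and 1.98 in EGFR-high and 0.315 and 7.97 in EGFR-low untreated cells. In DMSO they had 24.2 and 9.69 in EGFR-high and 39.1 and 1.11 in EGFR-low cells. Others, such as OLFML3 and L1CAM, kept their order. ANXA10, high in untreated EGFR-low cells, was listed at 0.0246, 0 and 0 FPKM in EGFR-low cells in DMSO. The experiments were normalized separately and the difference between them was not tested.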

How the results depend on the processing

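The 8 genes called between EGFR-high and parental cells became 15 without a filter on low values, 3 with a filter of 5 FPKM, 2 with the compared groups alone and 2 to 8 with 1 library left out. The same counts for EGFR-low against parental cells (181 as reported) were 331, 82, 107 and 67 to 252, and for EGFR-low against EGFR-high cells (431 as reported) 660 without the filter, 206 with 5 FPKM and 205 to 497 with 1 library left out. With the trend with GC content and length removed they were 7, 534 and 947. For these counts the cause was not tested. With the replicate block they were 9, 525 and 965, and with the block and the trend removed 78 (48 higher and 30 lower), 2328 and 2495, where PLBD1, SCEL, CCDC68, CEACAM5, STEAP1, OLFML3, MGP, ID3, EFEMP1, TM7SF2, ABCC2 and MFGE8 were also called, although not every library correlated best with its own number (parental 3 with EGFR-high 1 at 0.713), so the numbers are not read as pairs. A pair of alternatives was chosen after seeing the data, leaving out the 3 replicate 2 libraries (4 genes for EGFR-high and 929 for EGFR-low against parental cells) and doing so with the trend removed (25, 2210 and, for EGFR-low against EGFR-high cells, 1377). The median log2 fold change of all tested genes was 0.07 as reported, -0.02 with median-of-ratios and -0.04 with quantile scaling.

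The sign of EGFR's log2 fold change turned without parental replicate 2 (-0.20; range with 1 library left out -0.20 to 0.37) and with the trend removed and no replicate 2 libraries (-0.0291). The other reversals were of uncalled genes. With the trend removed, with or without the block, MUC1 was -0.17, TGFB1 -0.41, TGFB2 0.0956, CDH1 -0.0395, COL1A1 -0.44, CDH5 -0.16 and CD68 -0.27. With the trend removed and no replicate 2 libraries, MUC1 was -0.41, TGFB1 -0.53, CDH1 -0.0666, ANXA10 0.0164, IL8 0.17, KRT19 -0.13, COL1A1 -0.39, CDH5 -0.21 and CD68 -0.16. Median-of-ratios scaling gave ITGAV -0.0206, CDH1 -0.0487 and CD68 -0.0286, and quantile scaling ITGAV -0.0038, COL1A1 -0.12 and CDH5 -0.0424. With 1 library left out, ITGAV ran from -0.0014 to 0.13, TGFB1 from -0.0602 to 0.44, TGFB2 from -0.47 to 0.0576, FN1 from -0.64 to 0.12, LTBP1 from -0.39 to 0.13, CDH1 from -0.11 to 0.18, IL8 from -1.07 to 0.32, COL1A1 from -0.17 to 0.26, CD68 from -0.23 to 0.33 and NCAM1 from -0.0745 to 0.0219. The number of fragments per library is unknown, which leaves the precision of low values unknown.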

Other observations

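Histone genes were looked at after the values had been seen. Of 71 genes whose symbol starts with HIST, 62 were above 0 in at least 1 of the 6 libraries. Their summed FPKM ran from 46.5 to 61.7 in parental and from 69.4 to 91.1 in EGFR-high cells, without overlap (p = 0.1 by an exact permutation test, two-sided, which cannot go lower with 3 libraries a group). Most histone messages carry no poly(A) tail, and the libraries were made from polyadenylated RNA.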
